A study of Homo sapiens with 12 samples.

Results

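Gene expression after joint treatment with tosedostat and CHR-3996 was compared with that of untreated cells in H929, a human myeloma cell line. The 6 arrays of this comparison, 3 labelled Combination and 3 labelled Control, were chosen by their titles from the 12 arrays of the series, and all measured genes were described. Combination cells had received 1 µM tosedostat (CHR-2797), an inhibitor of aminopeptidases, together with 250 nM CHR-3996, an inhibitor of histone deacetylases (HDACs), for 24 hours. Untreated cells had received neither compound, and their time in culture is not given in the labels. The remaining 6 arrays held 3 of tosedostat alone and 3 of CHR-3996 alone at those doses and that time. Total RNA of each sample was amplified in 2 cycles and hybridized to an Affymetrix U133 Plus 2.0 array. The arrays are labelled biological replicates, but the labels do not say whether each was a culture of its own, so the p-values cover the spread among these arrays alone. All groups are 1 cell line, so a result describes H929 and not myeloma in general.

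Aminopeptidases release single amino acids from the short peptides that the proteasome leaves, and their inhibition starves a cell of recycled amino acids and calls up the amino acid response, in which the factor ATF4 turns on transporters, synthetic enzymes and stress genes. HDACs remove acetyl groups from histones and other proteins, and their inhibition alters transcription at many genes, switches on genes that were silent and slows the cell cycle. NFκB factors are held in the cytoplasm by IκB proteins and are brought into the nucleus by a canonical route through IκB kinase and a non-canonical route through NIK, and they switch on several of their own brakes, such as IκBα and A20. Myeloma cells are malignant plasma cells, and many of them depend on NFκB.

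Promoters of some of the genes on which the results turn are shown so that the letters behind the gene groups can be seen beside their values. They are RefSeq sequences of the assembly GRCh38.p14, read 5′ to 3′ on the strand of the gene from windows that run from 250 bases before to 50 bases after the annotated start. IFIT1 and IFIT3 (interferon-induced genes), CXCL10 (a chemokine of interferon and NFκB), NFKBIA and TNFAIP3 (the NFκB brakes IκBα and A20), CHAC1 (a stress gene downstream of ATF4 and CHOP), and CDC25A, UHRF1 and TYMS (genes of the cell cycle) are given. Capitals mark a match to the interferon-stimulated response element (ISRE, here GAAA, any 2 bases and GAAA again) in the first 3, to the κB consensus in CXCL10, NFKBIA and TNFAIP3, to the CHOP and ATF4 element TGATGNAA in CHAC1, and to an E2F element (TTTCCCGC or TTTGGCGC) in the last 3. Each motif was searched on both strands, and in CXCL10 the first run in capitals is the ISRE match and the following pair are κB matches. The stretches lie at chr10:89392487-89392549 (+), chr10:89327821-89327904 (+), chr4:76023590-76023738 (−), chr14:35404801-35404850 (−), chr6:137867172-137867233 (+), chr15:40953242-40953289 (+), chr3:48188434-48188481 (−), chr19:4909467-4909500 (+) and chr18:657594-657641 (+), in this order.
IFIT1: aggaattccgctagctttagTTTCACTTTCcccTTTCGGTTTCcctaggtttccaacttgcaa
IFIT3: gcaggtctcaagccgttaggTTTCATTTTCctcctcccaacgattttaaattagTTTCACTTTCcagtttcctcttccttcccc
CXCL10: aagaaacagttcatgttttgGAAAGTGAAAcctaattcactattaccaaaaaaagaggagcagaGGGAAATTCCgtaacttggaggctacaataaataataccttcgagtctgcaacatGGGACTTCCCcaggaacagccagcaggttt
NFKBIA: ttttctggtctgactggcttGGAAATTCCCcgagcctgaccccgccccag
TNFAIP3: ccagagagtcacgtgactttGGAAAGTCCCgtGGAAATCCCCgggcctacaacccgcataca
CHAC1: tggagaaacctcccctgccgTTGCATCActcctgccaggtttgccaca
CDC25A: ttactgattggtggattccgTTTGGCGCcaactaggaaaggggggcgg
UHRF1: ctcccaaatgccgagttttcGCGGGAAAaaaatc
TYMS: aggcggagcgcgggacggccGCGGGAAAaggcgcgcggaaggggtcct

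Of 15587 measured genes, 12413 had such a promoter. The ISRE stood in 2.90% of them and in 18 of the 27 interferon response genes with a promoter. The κB consensus stood in 6.67% of measured genes and in 4 of 17 NFκB brakes and 8 of 23 NFκB-regulated genes. TGATGNAA stood in 2.27% of measured genes and in 7 of 26 targets of ATF4 and CHOP, and an E2F element in 3.33% and in 17 of 40 DNA replication genes. These lists gather genes partly because such sites are known in them, so the shares describe the lists and are not a test. Among genes that rose at least 4-fold in combination cells, 4.73% held an ISRE and 7.80% a κB match, and among those that fell at least 4-fold, 12.5% (10 of 80) held an E2F element. Over all genes called higher, as defined below, the shares were 3.15% for the ISRE and 6.72% for κB, near those of measured genes. Over all genes called lower, 5.83% held an E2F element and 6.72% a κB match. None of these shares was tested.

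The label of the cells was checked against marker genes. All 10 plasma cell markers listed, with FGFR3 and NSD2, the genes joined to the immunoglobulin locus in t(4;14) myeloma, lay above the 40th percentile of the arrays in both groups. Some markers of every other cell type listed, such as CD3E, COL1A1 and HBB, also did, so this level alone does not tell cell types apart. The summed level of the plasma cell markers (log2 of the summed linear values) was 15.23 to 15.26 in combination and 15.77 to 15.82 in untreated cells. The 4 kept B cell markers summed to 8.91 to 9.33 against 6.50 to 6.74, where BCL6 rose by 4.89 and PAX5 by 1.54, and MS4A1 and FCER2 differed by −0.06 and 0.00. The 4 kept monocyte markers summed to 7.79 to 8.09 against 7.19 to 7.38, with LYZ higher by 2.04, S100A8 by 1.71 and FCN1 lower (−0.59), and HBB, the only erythroid gene kept, stood at 7.59 to 8.74 against 5.71 to 6.94, with 3 of its 4 probe sets higher and 1 lower. Kept T cell (7.01 to 7.27 against 6.75 to 6.99), NK cell (5.64 to 6.59 against 6.43 to 6.80), stromal (7.65 to 8.07 against 7.92 to 8.24) and endothelial markers (8.30 to 9.81 against 8.11 to 8.74) held 3 genes each, of which CD2 alone was called on its brightest probe set. Of the 3 probe sets of COL1A1, a stromal marker, 1 dimmer one was higher, by 3.75, and 2 were not called. Median log2 signal was 5.29 ± 0.02 on combination and 5.04 ± 0.04 on untreated arrays (SD, n = 3), and the log2 difference between the 3′ and 5′ probe sets of ACTB, which grows with RNA degradation or short amplification products, was 1.24 ± 0.15 against 2.14 ± 0.17. For GAPDH the same measure was 0.35 ± 0.09 against 0.44 ± 0.06, a smaller gap. Results under other scalings between arrays are given below, and the part of the ACTB and GAPDH differences in the results was not tested. In cells taken in bulk, fewer cells of a type and less RNA per cell cannot be told apart.

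Joint treatment changed a large part of the measured transcriptome. Each gene is represented by its brightest kept probe set, levels and differences are log2 values as deposited, and a gene is called higher or lower at a limma adjusted p under 0.05. In combination cells 5395 of 15587 genes were higher (34.6%) and 2477 lower (15.9%) than in untreated cells, and counts against untreated cells in every gene group below are to be read against these shares. Together 50.5% of genes were called. Over probe sets, 11637 were higher (32%) and 5149 lower (14.1%), so that 69.3% of the called ones were higher. This split depended on the scaling between arrays. It was 46.6% once the arrays had been quantile normalized and 48.8% once their medians had been made equal. The median difference over all probe sets moved from 0.14 as deposited to −0.12 and −0.10 in these settings. The 3 arrays of one group lay wholly above those of the other for 6193 genes (39.7%) and wholly below for 3193 (20.5%). At least a 4-fold difference was seen for 980 of the higher and 104 of the lower genes, and for 591 of the higher genes the untreated mean lay below the 40th percentile, where the level is poorly measured. Probe sets without a symbol or with several are in none of the gene counts or rankings here. Other probe sets of a gene can differ from the brightest, and they are given below for some genes only.

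The highest change was that of RGS1, a G protein regulator of lymphocyte migration. It stood at 11.78, 12.67 and 11.93 in combination and at 2.28, 5.14 and 3.00 in untreated cells, a 403-fold rise (log2 difference 8.65, SE 0.63, limma adjusted p = 1.3e-06). The untreated arrays spread over nearly 3 log2 units, and arrays 1 and 3 of them lay below the 40th percentile, so the fold is loosely set although the groups lie far apart. SELENOP, a secreted selenium carrier, stood at 12.42, 12.83 and 12.46 against 4.65, 4.63 and 4.48, a 253-fold rise (7.98, SE 0.22, limma adjusted p = 1.19e-08), and both groups were tight. Behind them came RAB3C (a vesicle GTPase, 7.06), MMP13 (a collagenase, 6.72), HLA-DPB1 (6.49), ENPP2 (autotaxin, 6.38), MAP2 (a neuronal microtubule protein, 6.36), FRMD4B (6.32), FN1 (fibronectin, 6.18) and SPRR3 (an epithelial envelope protein, 6.14). Untreated arrays lay below the 40th percentile for RAB3C, MMP13, HLA-DPB1, ENPP2, MAP2, FRMD4B and FN1. The other FRMD4B probe set differed by −0.76 and was not called. Nor was 1 of 4 RAB3C probe sets (−0.07) or 1 of 5 FN1 probe sets (−0.05). Decreases were smaller. CDC25A, the phosphatase that frees CDK2 for entry into S phase, stood at 5.64, 6.06 and 6.40 in combination and at 10.53, 10.73 and 10.48 in untreated cells, 23.3-fold lower (−4.54, SE 0.26, limma adjusted p = 3.1e-07). CXCR3, the receptor of CXCL10, fell by 4.04, from 8.77 ± 0.20 to 4.73 ± 0.47 (SD, n = 3), with no overlap of the groups.

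Several negative regulators of NFκB rose. Of the 19 measured brakes, 10 were higher and none lower, with a median log2 difference of 0.35 against 0.15 over all genes, and 4 more of the 23 listed had no kept probe set named for them alone and are not described. After quantile normalization 9 were higher and 4 lower (median 0.13), and with equal array medians 8 and 2 (0.10). TNFAIP3, which encodes A20, a ubiquitin-editing enzyme that stops signalling to IκB kinase, stood at 9.88, 10.22 and 9.80 in combination and at 5.84, 6.40 and 6.03 in untreated cells. It rose 14.7-fold (3.88, SE 0.26, limma adjusted p = 8.6e-07), with 3 log2 units and more between the groups, and both of its probe sets were called. NFKBIA, which encodes IκBα, stood at 10.98, 10.29 and 10.45 against 8.48, 8.35 and 8.05 and rose 4.86-fold (2.28, SE 0.21, limma adjusted p = 5.52e-06). A further, dimmer NFKBIA probe set differed by −0.28 and was not called. CYLD, a deubiquitinase that removes the chains on which the pathway is assembled, stood at 10.30, 10.48 and 10.36 against 8.68, 8.96 and 8.60 and rose 3.11-fold (1.64, SE 0.13, limma adjusted p = 2.5e-06), and 6 of its 7 probe sets were higher, by 0.49 to 2.09. NFKBIZ, a nuclear IκB protein that works with NFκB at selected promoters, rose by 3.38 (10.78, 10.06 and 10.01 against 6.80, 6.83 and 7.08). In none of these 4 genes did the arrays of the groups overlap.

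Subunits and activators of the pathway moved in both directions. Of 23 measured, 12 were higher and 3 lower (median 0.44), but 8 and 7 after quantile normalization and 8 and 6 with equal array medians. MAP3K14, the kinase NIK that drives the non-canonical route, stood at 6.88, 7.02 and 6.96 in combination and at 3.39, 3.66 and 3.36 in untreated cells, where all 3 arrays lay below the 40th percentile, and it rose 11.2-fold (3.48, SE 0.15, limma adjusted p = 6.02e-08). MALT1 and BCL10, partners in a scaffold of antigen receptor signalling, rose by 1.43 and 1.28. The other BCL10 probe set differed by −0.21 and was not called. RELB, the non-canonical subunit, rose by 0.72 (5.96, 6.46 and 5.59 against 5.26, 5.52 and 5.08, limma adjusted p = 0.0221), and NFKB2, which encodes its partner, fell by 0.58 on its brightest probe set (limma adjusted p = 0.00178), while a dimmer NFKB2 probe set rose by 1.37 (limma adjusted p = 0.0405) and a further one differed by −0.20. NFKB1 differed by −0.05 (limma adjusted p = 0.818). IRAK1, a kinase of Toll-like and IL1 receptors, fell by 1.68 and IKBKB, the catalytic IκB kinase subunit, by 0.65.

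Among 28 measured cytokines, chemokines and surface genes that NFκB regulates, 14 were higher and 4 lower (median 0.49), and the lower count was 2 without combination array 2 or 3 or untreated array 3. CXCL10 stood at 8.19, 8.60 and 8.20 in combination and at 3.09, 2.31 and 3.27 in untreated cells, below the 40th percentile there, and rose 43.5-fold (5.44, SE 0.29, limma adjusted p = 2.31e-07). CCL4, a chemokine for monocytes and T cells, stood at 12.17, 12.19 and 12.25 against 7.40, 6.74 and 6.85 and rose 36.9-fold (5.20, SE 0.28, limma adjusted p = 2.31e-07). PTGS2 (cyclooxygenase 2) rose by 3.67 and TNFSF10, which encodes the death ligand TRAIL, rose by 3.50. The plots of these genes by array show how the levels in combination cells sat beside those of each compound alone.

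**Figure D1:**
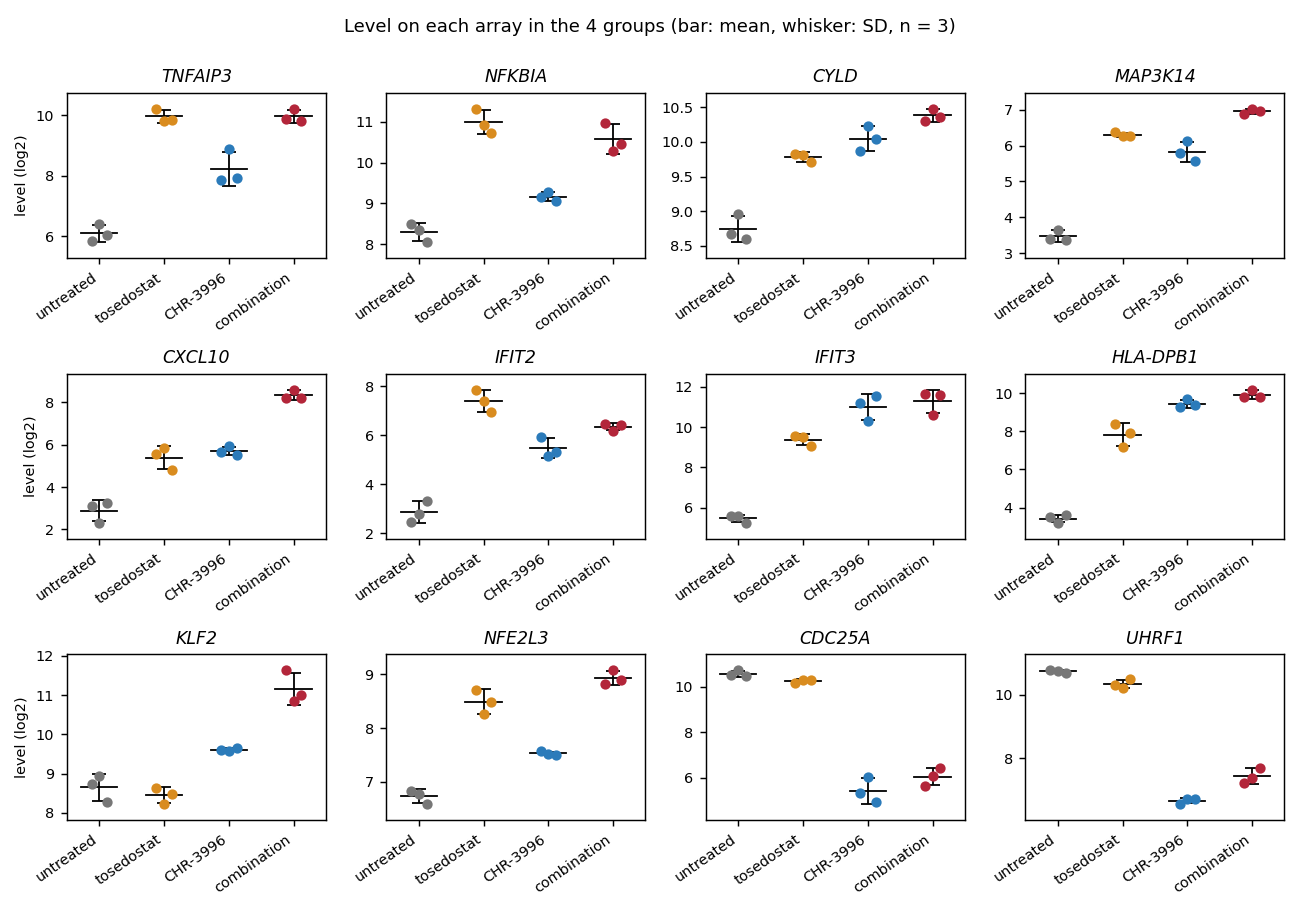
Log2 level (vertical axis) of 12 genes on each of 3 arrays of untreated, tosedostat, CHR-3996 and combination cells, with points for arrays, bars for the mean and whiskers for the SD (n = 3). TNFAIP3 was as high with tosedostat alone as with both compounds, CXCL10 and KLF2 were highest with both, and CDC25A and UHRF1 were low wherever CHR-3996 was given.

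Most genes of the interferon response rose. Of 34 measured, 27 were higher and 2 lower, and the median was 1.74 against 0.15 over all genes. IFIT3, an antiviral tetratricopeptide protein, stood at 11.61, 10.58 and 11.60 in combination and at 5.60, 5.58 and 5.26 in untreated cells, a 55.0-fold rise (5.78, SE 0.34, limma adjusted p = 3.71e-07). IFIT1, its neighbour on chromosome 10, stood at 10.59, 9.67 and 10.52 against 4.93, 4.76 and 4.33 and rose 48.1-fold (5.59, SE 0.43, limma adjusted p = 1.98e-06). Array 2 was the lowest of the combination arrays for both, though still 4 log2 units and more above every untreated array. PARP14 (3.96), IFIT2 (3.49), IFI6 (3.56), SAMD9 (3.42), GBP2 (3.28) and MX1 (2.33) also rose. IFI35 and XAF1 fell by 0.41 and 1.12. IFI44 (−0.01), ISG20 (0.31), OAS2 (−0.23), PARP9 (0.17) and GBP1 (0.31) did not pass the test on their brightest probe sets. Dimmer probe sets of some of these genes did: PARP9 rose by 4.71, IFI44 by 3.39 and GBP1 by 3.25 and 1.40, and OAS2 fell by 1.15.

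MHC class II genes, which present antigen on B cells and are silenced as plasma cells mature, rose, and their master activator was not called. Of 15 measured genes of the class II pathway, 11 were higher and none lower (median 1.13). HLA-DPB1 stood at 9.79, 10.19 and 9.77 in combination and at 3.48, 3.20 and 3.59 in untreated cells, below the 40th percentile, a 90.1-fold rise (6.49, SE 0.26, limma adjusted p = 5.62e-08). HLA-DPA1 (5.79), HLA-DQB1 (5.10), HLA-DRA (5.05) and HLA-DMA (4.59, part of the peptide loader) rose as well. Class II genes are close copies of one another, and probe sets may cross-hybridize among them and among alleles. CIITA, the co-activator on which class II transcription usually depends, differed by −0.04 (limma adjusted p = 0.845) and CD74, the invariant chain, by 0.16 on its brightest probe set (limma adjusted p = 0.365), while a dimmer CD74 probe set rose by 2.52 (limma adjusted p = 0.0107). The subunits of the promoter-bound RFX complex rose, RFX5 by 1.05, RFXANK by 1.13 and RFXAP by 0.81. MHC class I genes showed less: 5 of 18 were higher and 3 lower (median 0.18, and −0.07 with equal array medians).

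The amino acid and stress response rose in part. Of 29 measured targets of ATF4 and CHOP, 13 were higher and 2 lower (median 0.32), beside 34.6% and 15.9% of all genes. ATF3, a stress-induced repressor, stood at 12.02, 11.58 and 11.50 in combination and at 8.15, 7.85 and 7.97 in untreated cells (3.71, SE 0.16, limma adjusted p = 7.46e-08). DDIT3, which encodes the pro-apoptotic factor CHOP, stood at 10.53, 10.49 and 10.06 against 7.18, 6.91 and 6.83 and rose 10.5-fold. CHAC1, which degrades glutathione, stood at 11.76, 11.19 and 11.22 against 8.35, 8.22 and 7.48 and rose 10.4-fold. INHBE (2.31), SESN2 (1.64) and ASNS, asparagine synthetase (1.27), rose, while STC2 fell by 1.07 and CEBPB by 0.94. ATF4 itself differed by 0.05 and TRIB3 by 0.34, neither called. Of 23 amino acid transporters 3 were higher, among them SLC7A11, the cystine importer (2.75), and 4 lower, among them SLC7A1, an importer of cationic amino acids (−1.45). Of 23 enzymes of serine, glycine, asparagine, proline and one-carbon metabolism 6 were higher and 6 lower. Of 17 cytosolic tRNA synthetases 1 was higher and 6 lower (median −0.23), with FARSA at −0.91 and IARS1 at −0.65. Of 20 aminopeptidases, the enzyme family that tosedostat inhibits, 5 were higher and 4 lower, with LTA4H (1.68) and ENPEP (1.44) among the higher.

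Genes of protein folding and breakdown moved little as groups. In the unfolded protein response, 9 of 32 genes were higher and 6 lower (3 and 14 with equal array medians), and the lower count was 3 without combination array 2 or 3 or untreated array 1. Of 26 heat shock chaperones 7 were higher and 8 lower, from HSPA2 (3.44) and HSPB1 (1.99) to FKBP4 (−1.40). Of 33 proteasome subunits 1 was higher and 7 lower (1 and 15 with equal array medians), with the immunoproteasome subunit PSMB10 at 9.39 ± 0.20 against 11.04 ± 0.04 (SD, n = 3; −1.65) and PSMB5, a catalytic subunit, at −1.22.

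Most of the genes listed for nutrient sensing, autophagy and the lysosome rose. Of 24 genes of mTORC1 nutrient sensing, 14 were higher and 3 lower (median 0.88). SESN3, a sestrin that restrains mTORC1, stood at 10.19, 9.97 and 10.02 in combination and at 4.70, 5.13 and 5.21 in untreated cells, a 33.0-fold rise (5.04, SE 0.25, limma adjusted p = 1.37e-07). SESN1 rose by 1.72 and SAMTOR, a sensor of S-adenosylmethionine, by 1.84. In autophagy 28 of 39 genes were higher and 3 lower (median 0.83), led by the receptor OPTN (11.23, 11.30 and 11.11 against 8.35, 8.52 and 8.15, a rise of 2.87), the initiating kinase ULK1 (2.35), MAP1LC3B (2.34), whose product coats the autophagosome, and the mitophagy receptor BNIP3L (2.07). In the lysosome 26 of 36 genes were higher and none lower (median 0.59), with CTSF, a cathepsin, at 2.41, NPC2, a cholesterol carrier, at 1.71, LAMP2 at 1.50 and TPP1 at 1.47, although 17 were higher with equal array medians. In cholesterol synthesis and uptake 12 of 22 were higher and none lower (11 and 5 under each of the other scalings), with TM7SF2 at 2.91 and LSS at 1.33. The other LSS probe set differed by 0.005 and was not called.

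Most genes of DNA replication and of ribosome production fell. Of 47 measured DNA replication genes, 38 were lower and 4 higher, with a median of −1.10. CDC45, part of the replicative helicase, stood at 6.64, 7.62 and 7.78 in combination and at 10.51, 10.22 and 10.44 in untreated cells (−3.04, SE 0.29, limma adjusted p = 7.66e-06). MCM10 (−2.45), MCM4 (−2.31), DNA2 (−2.22), POLE2 (−2.21) and CDC6 (−2.16) fell, while RPA3 (0.91), RFC1 (0.67), PRIM2 (0.64) and ORC3 (0.32) rose. UHRF1, which brings the maintenance DNA methyltransferase to new strands, stood at 7.20, 7.38 and 7.70 against 10.78, 10.75 and 10.70, 9.94-fold lower (−3.31, SE 0.14, limma adjusted p = 5.62e-08). In nucleotide synthesis 16 of 24 were lower and 2 higher (median −0.86), led by TYMS, thymidylate synthase, at 9.40, 10.10 and 10.25 against 13.09, 13.05 and 12.95 (8.65-fold lower), and CTPS1 (−3.05). In homologous recombination and the Fanconi pathway 20 of 25 were lower and none higher (median −0.85), with BRCA1 at −1.87 and the checkpoint kinase CHEK1 at −1.83, of which 1 of 4 probe sets rose instead, by 2.01.

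Mitotic genes showed the same direction, with 29 of 45 lower and 1 higher (median −0.94). The centromere and kinetochore genes CENPM (−2.61), SPC24 (−2.29) and SPC25 (−2.16) and the kinase AURKB (−1.94) fell, and PTTG1, which encodes securin, rose by 0.71. The other AURKB probe set differed by −0.39 and was not called. Of 28 cyclins, CDKs and E2F and RB family genes, 16 were lower and 4 higher. FOXM1, the factor of the G2 and M programme, fell by 3.11 (5.60, 6.49 and 7.19 against 9.68, 9.54 and 9.39). CCND1, cyclin D1, fell by 2.91 (6.99, 7.30 and 7.05 against 10.09, 9.99 and 10.01), while CCNG2, a cyclin of arrested cells, rose 23.5-fold (12.10, 11.95 and 12.08 against 6.91, 8.12 and 7.43), with 4 of its 5 probe sets higher and 1 lower. Among 7 CDK inhibitors, CDKN2B (4.57), CDKN1C (3.18) and CDKN1A (0.68), which encode p15, p57 and p21, rose, and CDKN1B, p27, fell by 0.55. CDKN2B lay below the 40th percentile in untreated cells. In ribosome biogenesis 27 of 31 genes were lower and none higher (median −1.03), with LYAR at 8.43, 8.42 and 8.34 against 10.81, 10.58 and 10.68 (−2.30), TCOF1 at −1.91, NOP16 at −1.70 and NIP7 at −1.42. NPM1 (−0.10), FBL (−0.23), WDR12 (−0.33) and POLR1A (−0.42) did not pass the test, although 2 dimmer POLR1A probe sets fell by 1.50 and 0.93 and 1 of NPM1 by 0.30.

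**Figure D2:**
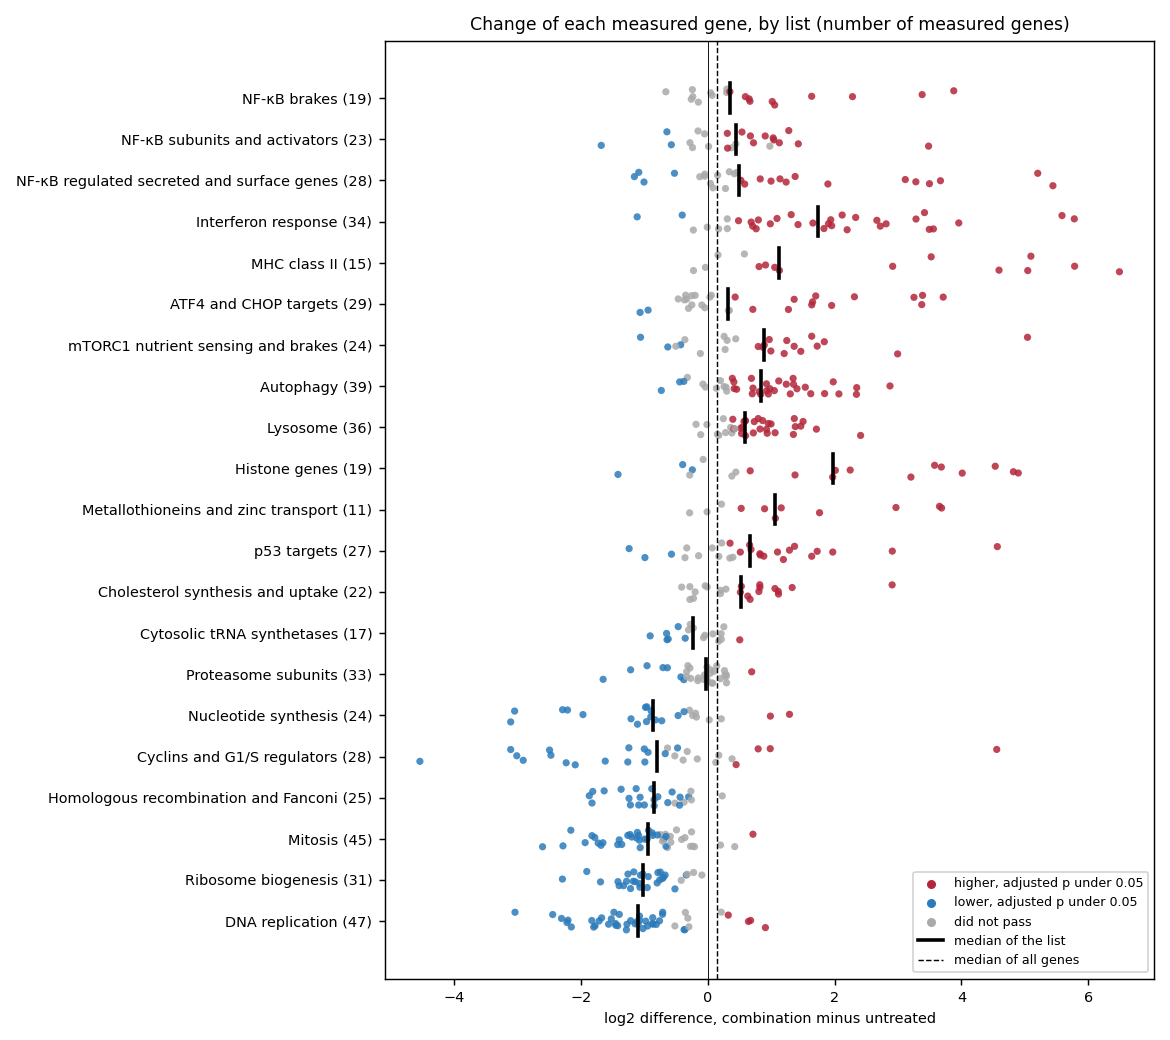
Log2 difference between combination and untreated cells (horizontal axis) for each measured member of 21 gene groups, 1 point a gene, with a line at the median of the group and a line at the median of all genes. Interferon response, MHC class II, autophagy and histone genes lie mainly to the right, and DNA replication, homologous recombination, mitosis and ribosome biogenesis genes to the left.

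Chromatin and stress genes that lie outside these pathways also moved. Of 19 histone genes 12 were higher and 3 lower (median 1.97), and the lower count was 1 without combination array 2 or 3 or untreated array 1 or 2. H2BC5 rose 29.8-fold (11.51, 11.06 and 10.62 against 5.76, 6.92 and 5.82), and H1-3 (4.82), H2AC6 (4.53) and H2BC21 (4.01) rose, while H2AX fell by 1.42. Histone genes are near copies whose probe sets may share transcripts. Of 18 HDAC genes 9 were higher and 1 lower (6 and 4 after quantile normalization), with SIRT4 (3.27), HDAC9 (2.85) and HDAC5 (1.47) the highest. The other HDAC5 probe set differed by −0.05 and was not called. DNA methylation genes were lower in 8 of 13 and higher in 2, with TDG at −1.31 and TET1 at −1.28. Genes of metallothioneins, which bind zinc, and of zinc transport were higher in 8 of 11 and lower in none (median 1.06). MT2A stood at 13.25, 12.51 and 12.68 against 9.34, 9.37 and 8.76 (12.6-fold), with MT1H at 3.69 and MT1G at 2.97, and these genes too are near copies.

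AP-1 and early response factors were higher in 10 of 19 and lower in 2 (median 0.70), with FOS at 8.15, 8.06 and 8.02 against 3.79, 4.66 and 4.49, where the untreated mean lay below the 40th percentile, and JUN at 11.18, 10.09 and 10.18 against 7.93, 7.30 and 7.43. MAP kinase feedback genes were higher in 8 of 14 and lower in 2, from DUSP10 (3.05) to DUSP2 (−2.09). RGS genes were higher in 8 of 14 and lower in 1, with RGS2 at 4.63 and RGS13 at 2.75 beside RGS1. In the NRF2 and glutathione group 14 of 28 were higher and 2 lower, with the quinone reductase NQO1 at 3.19 and haem oxygenase HMOX1 at 2.44. TXNIP, the inhibitor of thioredoxin, stood at 13.29, 12.75 and 13.24 against 10.36, 9.84 and 10.09 (7.96-fold).

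Genes of cell death moved in both directions. Of 27 p53 targets 16 were higher and 3 lower (median 0.66), with TP53INP1 at 11.55, 11.70 and 11.51 against 6.81, 7.29 and 6.95 (23.7-fold), PLK2 at 2.91 and PERP at 1.97. Among pro-apoptotic genes 8 of 20 were higher and 4 lower, with a median of −0.01. The lower count was 8 after quantile normalization and 2 without combination array 2 or 3 or untreated array 2 or 3. On their brightest probe sets APAF1, the core of the apoptosome, rose by 2.15, CASP9 by 1.32 and BCL2L11, which encodes BIM, by 0.55, while BID fell by 1.47. APAF1 had 1 of 3 probe sets higher and 2 not called, down to 0.11. BCL2L11 had 6 of 7 higher and 1 not called, with differences of −0.14 to 3.46. Among 13 anti-apoptotic genes 4 were higher, with BCL2 at 2.00 and MCL1 at 0.49, and 3 lower, with BIRC5, survivin, at −1.73 and BCL2A1 at −1.09. BCL2 had 2 of 4 probe sets higher and 2 not called, and MCL1 had 5 of 6 higher, up to 1.32. In the death receptor pathway 9 of 19 were higher and 3 lower.

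Genes of plasma cell identity moved in both directions. SDC1, which encodes CD138, stood at 10.11, 10.06 and 9.97 in combination and at 11.92, 12.07 and 12.11 in untreated cells, 3.96-fold lower (−1.99, SE 0.16, limma adjusted p = 2.42e-06). TNFRSF17, which encodes the receptor BCMA, stood at 11.55, 11.99 and 12.06 against 13.49, 13.52 and 13.50 and fell by 1.64, while CD38 rose by 0.81. IRF4 differed by −0.15 (limma adjusted p = 0.384; a dimmer probe set fell by 0.39) and XBP1 by −0.29 (limma adjusted p = 0.125), and MYC fell by 0.84 (limma adjusted p = 0.0137). Of 28 genes in the MYC and plasma cell identity list 11 were higher and 6 lower (11 lower with equal array medians). Of 6 genes at the t(4;14) breakpoint 4 were lower and 1 higher. FGFR3 fell by 1.03 (8.31, 8.01 and 8.19 against 9.43, 8.96 and 9.22, limma adjusted p = 0.00291), and its other probe set differed by −0.15 and was not called. NSD2 rose by 0.51 on its brightest probe set (11.08, 11.03 and 10.93 against 10.41, 10.66 and 10.44, limma adjusted p = 0.0320). That call was lost with equal array medians, without a filter on low values, and without combination array 1 or 2 or untreated array 1 or 3. Of the 6 NSD2 probe sets, 5 were higher and 1 was not called, with differences of 0.34 to 2.60.

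The combination was then set against each compound alone. From tosedostat alone it differed at 7202 of 15587 genes, or 46.2%, with 4740 higher (30.4%) and 2462 lower (15.8%), and at 10340 higher (28.4%) and 4979 lower (13.7%) probe sets. These counts come from the fit without a block. With the replicate number as a block, 5076 genes were higher and 2717 lower than with tosedostat, and 7139 of the 7202 were called the same way. From CHR-3996 alone it differed at 9 genes, all higher (0.0577%), while 3857 of 36395 probe sets passed an unadjusted p under 0.05 and 19 higher (0.0522%) and 4 lower (0.011%) probe sets passed the adjusted one. With the replicate number as a block, 16 genes differed from CHR-3996 alone, the same 9 among them, and A20 was then called too (TNFAIP3, 1.74, limma adjusted p = 0.0428 against 0.0596 without the block). The absolute log2 difference was under 0.5 for 93.3% of genes against CHR-3996 and for 56.0% against tosedostat. The median SE was 0.163 in both comparisons, with 3 arrays a group. Against CHR-3996, where few probe sets passed, the smallest difference called was 0.79 (ADRM1), whereas against tosedostat −0.45 was called for the same gene. Smaller differences from CHR-3996 could go uncalled, so the low count against it does not show that these genes were alike. Of the 5395 genes higher than in untreated cells, 4340 were also higher than with tosedostat, 22 were lower than with tosedostat and 1033 were called neither way. Of the 2477 lower genes, 1999 were also lower than with tosedostat. Both comparisons use the same combination arrays, which favours agreement in advance, so these overlaps are not a result.

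The medians of the gene groups are set side by side for the 3 treatments, which share the untreated arrays. Tosedostat alone left 663 genes higher (4.25%) and 85 lower (0.545%) and CHR-3996 alone 4946 higher (31.7%) and 2805 lower (18%). DNA replication genes had a median of −1.10 with both compounds, −0.14 with tosedostat and −1.61 with CHR-3996, and ribosome biogenesis genes −1.03, −0.05 and −1.05. Interferon genes stood at 1.74, 0.53 and 1.68 and autophagy genes at 0.83, 0.24 and 0.67. MHC class II genes stood at 1.13, 1.01 and 0.91 and NFκB brakes at 0.35, 0.41 and 0.37. Tested directly against tosedostat alone, 8 of 15 class II genes were higher and none lower in the combination, and 6 of 19 brakes were higher and 2 lower. Over all genes 30.4% were higher and 15.8% lower in that comparison, and the count of higher brakes is near that share. ATF4 and CHOP targets stood at 0.32, 0.59 and 0.36, and tRNA synthetases at −0.23, 0.28 and −0.35. In the same comparison the combination had 12 of 17 synthetases lower and none higher, and 17 of 33 proteasome subunits lower and 1 higher.

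**Figure D3:**
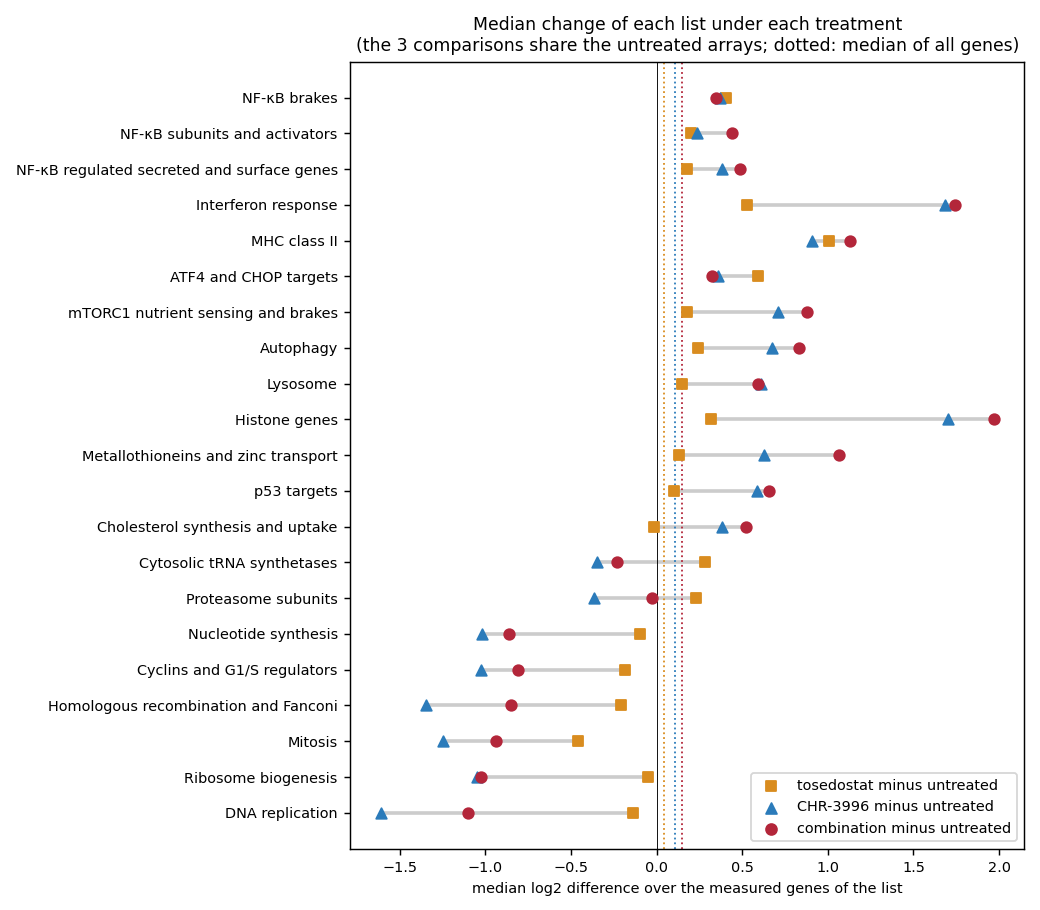
Median log2 difference from untreated cells (horizontal axis) of each gene group, with 1 point each for tosedostat, CHR-3996 and both compounds. For cell cycle, ribosome biogenesis and autophagy genes the combination lies nearer to CHR-3996 than to tosedostat, and for MHC class II genes and NFκB brakes the 3 medians span 0.91 to 1.13 and 0.35 to 0.41.

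Against both single compounds, 5 genes were higher (0.0321%) and none was lower at an adjusted p under 0.05 in each test. This count rests on single arrays: it was 0 without combination array 2, combination array 3 or CHR-3996 array 3, and 1 without CHR-3996 array 1 or without a filter on low values (NFE2L3 in both). With each of the other arrays of the treated groups left out it was 2 to 4, after quantile normalization 3 (ADGRE1, CXCL10 and KLF2) and with equal array medians 3 (ADGRE1, CXCL10 and MAP3K14), while all 5 were called under the replicate block. KLF2, a factor that keeps lymphocytes quiescent, stood at 11.63, 10.86 and 11.01 with both compounds, at 8.63, 8.24 and 8.48 with tosedostat, at 9.62, 9.57 and 9.66 with CHR-3996 and at 8.74, 8.94 and 8.27 in untreated cells. It was 2.72 above tosedostat (limma adjusted p = 4.25e-06), 1.55 above CHR-3996 (limma adjusted p = 0.0469) and 2.52 above untreated cells, while tosedostat alone differed from untreated cells by −0.20. CXCL10 was 2.95 above tosedostat (5.54, 5.82 and 4.79) and 2.63 above CHR-3996 (5.68, 5.91 and 5.52, limma adjusted p = 0.0163). ADGRE1, an adhesion receptor of the myeloid lineage, stood at 8.50, 8.99 and 8.95 with both, at 5.81, 5.88 and 6.30 with tosedostat and at 6.66, 7.34 and 6.95 with CHR-3996. MAP3K14 was 0.66 above tosedostat (6.37, 6.25 and 6.25) and 1.13 above CHR-3996 (5.80, 6.11 and 5.56). NFE2L3, a relative of NRF2, stood at 8.82, 9.07 and 8.90 with both, at 8.72, 8.26 and 8.49 with tosedostat and at 7.57, 7.52 and 7.50 with CHR-3996. No combination array of these 5 genes overlapped an array of either single compound, but the genes were picked by tests on these same arrays. The lack of overlap is therefore no further support. The further 4 genes called against CHR-3996 were NFKBIA (1.41), VASH2 (1.27), CENPV (0.80) and ADRM1 (0.79), a ubiquitin receptor of the proteasome. They did not exceed tosedostat: NFKBIA differed from it by −0.42 (not called), and VASH2, CENPV and ADRM1 were lower by log2 differences of −1.32, −1.74 and −0.45.

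Tosedostat alone already brought TNFAIP3 to 10.22, 9.82 and 9.86, and the combination differed from it by 0.00 (limma adjusted p = 0.999), whereas CHR-3996 alone gave 7.86, 8.88 and 7.93. CYLD rose with each compound (9.83, 9.81 and 9.71 with tosedostat, 9.87, 10.23 and 10.04 with CHR-3996) and was 0.60 higher with both than with tosedostat (limma adjusted p = 0.00335). RELB went the other way, at 7.28, 7.31 and 7.03 with tosedostat alone, and the combination differed from it by −1.20 (limma adjusted p = 0.00131). RELB was among the 22 genes that were higher than in untreated cells but lower than with tosedostat, as were RNF19B (−2.09 against tosedostat), ADAM8 (−1.37), NLRP7 (−1.20), IFIT2 (−1.06) and INHBE (−0.71). For IFIT2 the arrays stood at 6.45, 6.19 and 6.42 with both compounds and at 7.86, 7.41 and 6.96 with tosedostat, so the groups did not overlap.

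**Figure D4:**
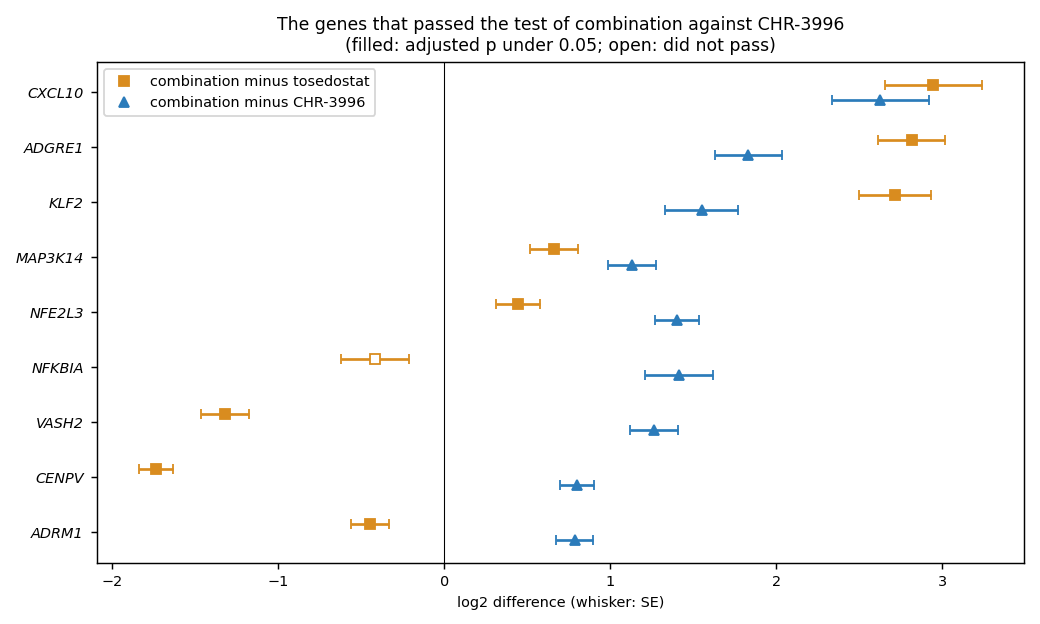
Log2 difference (horizontal axis) of the combination from tosedostat and from CHR-3996 for the 9 genes called against CHR-3996, with whiskers for the SE of the limma contrast. CXCL10, ADGRE1, KLF2, MAP3K14 and NFE2L3 lie above 0 against both compounds, and VASH2, CENPV and ADRM1 lie below 0 against tosedostat.

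Whether the joint change differed from the sum of the separate log2 changes was tested as an interaction. It was called for 43 genes, 38 with a joint change below the sum (0.244%) and 5 above it (0.0321%), and for 67 probe sets below (0.184%) and 8 above it (0.022%). Both single compounds stood above untreated cells in all 38. Of these 38 genes, all were called higher with tosedostat alone, 36 with CHR-3996 alone and 37 with both. Over all genes 4.25% were called higher with tosedostat alone, 31.7% with CHR-3996 alone and 34.6% with both. The same arrays enter the interaction, which favours counts of this kind in advance, so they describe these genes and are not a test. HLA-DPB1 rose by 4.40 with tosedostat and 6.01 with CHR-3996 but by 6.49 with both, an interaction of −3.92. IFIT3 rose by 3.90, 5.52 and 5.78 (−3.63), and DDIT3 by 2.02, 3.73 and 3.39 (−2.36). KLHL5, an adaptor of a ubiquitin ligase, rose by 3.18, 3.72 and 4.14 (−2.76, limma adjusted p = 4.2e-05), and its combination arrays of 8.91, 8.99 and 9.01 lay above all others. Of the 5 genes above the sum, 4 were lower in the combination than in untreated cells. UHRF1 stood at 6.56, 6.71 and 6.71 with CHR-3996 alone and at 7.20, 7.38 and 7.70 with both. CXCL10 rose by 5.44 with both and its interaction was 0.13 (limma adjusted p = 0.955), and that of KLF2 was 1.75 (limma adjusted p = 0.0555). With the replicate number as a block the interaction was called for 23 genes above and 103 below the sum, all 43 among them.

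**Figure D5:**
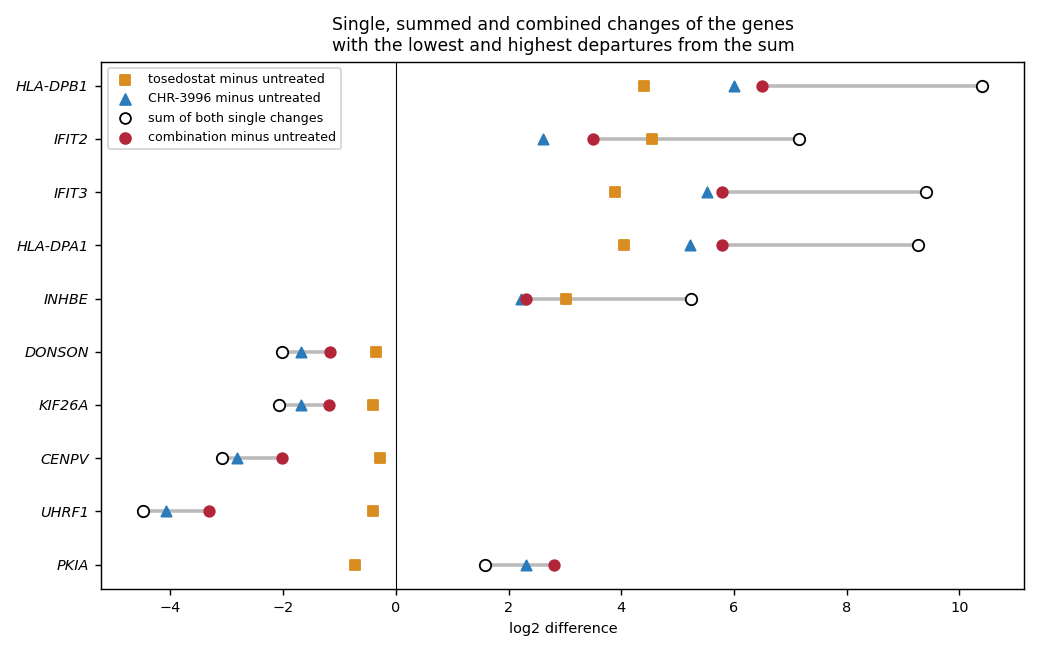
Log2 change from untreated cells (horizontal axis) of 10 genes with a called interaction, with points for tosedostat, for CHR-3996, for the sum of these and for both compounds. In HLA-DPB1, IFIT2, IFIT3, HLA-DPA1 and INHBE the joint change lies below the sum, and in PKIA, UHRF1, CENPV, KIF26A and DONSON above it.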

How the data were processed

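RNA was extracted by the authors, amplified, labelled with biotin and hybridized to 12 Affymetrix U133 Plus 2.0 arrays, and dChip was used for normalization. The file deposited by the authors holds a log2 expression level for every array and each of 54675 probe sets. Neither the version of dChip nor its normalization is given in the sources used here. Exact zeros numbered 1141 to 1344 an array. After 62 controls had been removed, a probe set was kept if it exceeded the 40th percentile of the array on 3 or more of the 12 arrays, which left 36395 of 54613, and the deposited log2 values were then used without rescaling. The number of arrays limits the precision.

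limma 3.58.1 in R 4.3.3 (lmFit and eBayes) was fitted with a mean for each of the 4 groups on all 12 arrays, leaving 8 residual degrees of freedom. Within a contrast, Benjamini-Hochberg adjusted p-values were taken over all kept probe sets, and 0.05 was the threshold. Symbols came from the platform annotation. Of the kept probe sets 29161 had 1 symbol, 1365 several and 5869 none, and a gene was represented by its brightest kept probe set with 1 symbol, which gave 15587 genes. The 49 gene lists held 1245 genes, of which 1108 were measured. Genes named were the 15 highest and 15 lowest whose arrays did not overlap, up to 4 called members a list by size of change, chosen NFκB brakes, the genes most above or below both single compounds and the largest and smallest interactions. Other members were named after their values were seen. The arrays, lists and named genes were chosen with earlier results of these data known. Summaries and plots were made in Python 3.11.15.

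The fit was checked on simulated data. It was repeated after quantile normalization, after setting arrays to equal medians, with no filter and with one at the 60th percentile, with the replicate number blocked, with a robust variance trend, on the 6 arrays alone, with a gene taken as the median of its probe sets, by the authors' selection criteria and without each array in turn. The labels number the arrays of each group 1 to 3. Deviations of arrays with the same number from their group means correlated by 0.19 to 0.233 for combination and tosedostat, by 0.179 to 0.28 for combination and CHR-3996, where every pair was over 0.1 and the numbers were taken to pair the arrays, and by 0.098 to 0.168 for combination and untreated arrays, where they were not. The main fit had no block in any comparison, also where the arrays were taken as paired, and the blocked counts are given beside it.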

Additional observations from a re-analysis of the deposited data

Results flagged for a closer look

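The interaction, the joint log2 change minus the sum of the changes under each compound, passed the test for these genes, each with 3 arrays a group and a limma adjusted p. It was −3.92 for HLA-DPB1 (SE 0.37, limma adjusted p = 0.00287), −3.67 for IFIT2 (SE 0.40, limma adjusted p = 0.00552), −3.63 for IFIT3 (SE 0.48, limma adjusted p = 0.0170), −3.48 for HLA-DPA1 (SE 0.32, limma adjusted p = 0.00195) and −2.93 for INHBE (SE 0.32, limma adjusted p = 0.00600). It was 0.86 for DONSON (SE 0.14, limma adjusted p = 0.0424), 0.89 for KIF26A (SE 0.14, limma adjusted p = 0.0317), 1.08 for CENPV (SE 0.14, limma adjusted p = 0.0180), 1.17 for UHRF1 (SE 0.19, limma adjusted p = 0.0424) and 1.21 for PKIA (SE 0.19, limma adjusted p = 0.0379).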

How the results depend on the processing

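Of the genes picked by the naming rules above, none changed direction against untreated cells in any setting tried. Genes that the text names outside these rules were not followed in this way, and small differences among them may change sign with the scaling. The calls of EP300, NSD2, NDUFB3, SELENON, TUBB1 and TACC3 were lost in at least 1 setting. Under quantile normalization 9858 probe sets were lower than in untreated cells, 8570 lower than with tosedostat and 8 lower than with CHR-3996, and the interaction was called for 19 above and 147 below the sum. With equal array medians 8929 were lower than in untreated cells, 8631 lower than with tosedostat and 2 lower than with CHR-3996. Without a filter 6 were higher and 0 lower than with CHR-3996, and the interaction was called for 1 and 21. With the filter at the 60th percentile 38 were higher than with CHR-3996 and the interaction was called for 40 and 184. With the replicate number as a block these were 30, 42 and 189, while against untreated cells the block gave 12394 higher and 5737 lower, and every combination array correlated best with the untreated array of its own number, a hint from the data only. The block moved no other count of probe sets by over 1.5 times. With a variance trend and robust estimation 76 were higher and 11 lower than with CHR-3996 and the interaction was called for 49 and 196. The authors' selection criteria took 3499 higher and 1154 lower probe sets against untreated cells, and 1898 and 813 after Benjamini-Hochberg adjustment.

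Leaving out 1 array gave 10529 to 10997 higher and 4336 to 4648 lower against untreated cells, and 9174 to 9502 and 4167 to 4495 against tosedostat. Against CHR-3996 it gave 1 to 16 higher and 0 to 3 lower, with 3 and 1 without combination arrays 2 and 3 and 3 and 1 without CHR-3996 arrays 1 and 3, so that count rests on single arrays. The interaction was called for 0 to 9 above and 22 to 81 below the sum. Of 49 list medians, 15 changed sign under another scaling, all with a median within 0.22 of 0 as deposited, among them the unfolded protein response, chaperones, amino acid transporters, aminopeptidases and MHC class I. The causes were not tested.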

Other observations

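Several groups held genes with large changes without moving as a whole. Of 27 neuronal genes 6 were higher and none lower (median 0.06), with SYT11, a synaptotagmin, at 10.64, 10.72 and 10.53 against 5.17, 5.33 and 5.24 (41.7-fold) and SYT1 at 2.08. Of 18 Wnt antagonists and receptors 7 were higher and 2 lower (median 0.01). DKK1, a secreted Wnt antagonist that restrains bone formation in myeloma, stood at 9.86, 10.01 and 10.38 against 6.90, 6.95 and 7.29 (3.03), and with tosedostat alone it differed from untreated cells by −1.13. The group medians of both lists turned negative under each of the other scalings.

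Of 33 adhesion and homing genes 7 were higher and 7 lower, from the integrins ITGA2 (2.94) and ITGAV (2.27) to ITGA8 (−2.44). Of 24 genes of glycolysis and glucose transport 8 were higher and 8 lower, with ARRDC4, a relative of TXNIP, at 4.15 and the aldolase ALDOC at 2.64. Of 31 oxidative phosphorylation genes 2 were higher and 5 lower, and 17 were lower with equal array medians. In the IL6 and JAK-STAT3 group 8 of 19 were higher and 3 lower, with IL21R at 2.87 and JAK1 at 1.75, of which 3 of 5 probe sets were higher and 1 lower.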
